A study of Sus scrofa domesticus with 11 samples.

Results

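The genes described here encode the carnitine acyltransferases and the mitochondrial carnitine carrier, read in liver RNA of preterm Yorkshire piglets fed by vein. They were chosen by name: 6 gene symbols were looked up among the 22029 genes of the deposited table, and 5 were found, namely CROT, CRAT, CPT1A, CPT2 and SLC25A20. All 5 were well counted and passed the filter on low counts, with at least 699 reads in every library. SLC22A5, the plasma membrane carnitine transporter, was not among the symbols of the table and was not analysed here.

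The series compared SEFA-6179, dosed at 48 mg/kg and named in the labels by code alone, with MCT, the vehicle control, at the equal volume of 3 ml/kg, in livers taken on day of life 15. As known from the study, MCT is medium-chain triglyceride, so control animals also received medium-chain fat, and parenteral nutrition was common to both groups. The SEFA-6179 group had 5 libraries and the MCT group 6, each taken as 1 animal, and no untreated or enterally fed group was analysed here. The labels name neither sex nor litter.

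Carnitine carries acyl groups across membranes that acyl-CoA cannot pass. CPT1A, in the outer mitochondrial membrane, moves long-chain acyl groups from CoA to carnitine and is the step that malonyl-CoA inhibits. SLC25A20 exchanges the acylcarnitine for free carnitine across the inner membrane, and CPT2 hands the acyl group back to CoA in the matrix, where beta-oxidation begins. CROT works inside peroxisomes and transfers medium-chain acyl groups, the chain-shortened products of peroxisomal oxidation, to carnitine for export. CRAT does the same for acetyl and other short groups, in mitochondria and in peroxisomes. Medium-chain fatty acids can enter mitochondria without CPT1, which is why the peroxisomal and the mitochondrial enzymes were set side by side.

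Total counts ran from 15974977 in MCT replicate 6 to 23416071 in MCT replicate 2. Hepatocyte markers had a summed level of 25921 to 55755 FPKM with SEFA-6179 and 23311 to 49355 FPKM with MCT, where FPKM is reads scaled to gene length and library depth. Skeletal muscle markers, with 3 of 5 genes in the table, summed to at most 0.105 FPKM in any library. Cholangiocyte markers (8 of 9 in the table) summed to 17.4 to 41.2 FPKM with SEFA-6179 and 23.0 to 68.7 FPKM with MCT, and all 7 tested members had a log2 fold change below 0. Endothelial markers (7 of 8 in the table) summed to 56.4 to 94.6 against 52.4 to 79.0 FPKM, with all 7 tested members above 0. Macrophage markers (9 of 9 in the table, 7 of 9 tested above 0) summed to 271 to 1343 against 491 to 1017 FPKM, and stellate markers (8 of 8, 1 of 7 tested above 0) to 102 to 165 against 118 to 209 FPKM. T and NK cell markers (6 of 7, 6 of 6 tested above 0) summed to 3.02 to 13.3 against 3.67 to 11.9 FPKM, and erythroid markers (5 of 7, 1 of 4 tested above 0) to 227 to 496 against 105 to 421 FPKM. None of the marker genes passed the threshold by edgeR, while 4 of 7 cholangiocyte, 4 of 7 stellate, 3 of 7 endothelial, 1 of 9 macrophage and 1 of 4 erythroid markers had an unadjusted p below 0.05. In whole liver, fewer cells of a type and less RNA per cell cannot be told apart, and the part of such shifts in the results below was not tested.

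SEFA-6179 livers held more CROT mRNA, and the other 4 members did not pass the threshold. Levels are given as CPM, counts scaled to a common library total after TMM scaling. CROT was at 154, 163, 165, 219 and 244 CPM in SEFA-6179 replicates 1 to 5. In MCT it ran from 72.1 CPM over a median of 88.4 CPM to 114 CPM, the highest being replicate 2. The groups did not overlap: the lowest SEFA-6179 library lay above the highest MCT library. Replicates 4 and 5 of SEFA-6179 stood above the other 3, which lay close together. The log2 fold change of CROT was 1.07 ± 0.17 (SE), a 2.11-fold rise with a 95% interval of 1.64-fold to 2.69-fold (edgeR quasi-likelihood test, Benjamini-Hochberg adjusted p = 0.0273, n = 5 and 6).

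Thus 1 of 5 members passed, where 0.219% of the 13671 genes tested did in either direction 0.117% did so as higher in SEFA-6179 and 0.102% as lower. By DESeq2, CROT was again the member that passed, where 1.78% of the genes it tested did. Likewise 1 of 5 members had groups that did not overlap in CPM, against 1.49% of genes tested. That CROT passed was known before the members were chosen, so these shares describe the genes and do not test them. In the authors' deposited table CROT had an adjusted p of 2.7e-06, and the other members lay between 0.533 and 0.977, where 1.16% of all genes were below 0.05. The DESeq2 fit and the deposited table each called 255 genes, out of 14303 tested and all 22029 genes. The shares of 1.78% and 1.16% thus differ only in the genes they are taken over, and the 2 are not separate support.

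The CROT call by edgeR rested on single libraries, while its size did not. Without SEFA-6179 replicate 5, MCT replicate 1 or MCT replicate 4 its adjusted p was 0.0987, 0.0827 and 0.0742. Of all genes tested, 0, 1 and 0 passed in these fits, so the loss was not particular to CROT. The log2 fold change of CROT over the 11 fits without 1 library was 0.96 to 1.16. The Y-linked gene EIF1AY had counts in 2 of 5 SEFA-6179 and 4 of 6 MCT libraries, and with its level as a covariate CROT had a log2 fold change of 1.06 and an adjusted p of 0.0515.

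CROT lies on chromosome 9 from 93258619 to 93308151 on the minus strand in the deposited coordinates, for which the sources used here name no genome build. At its 3' end it shares 3264 bases with ENSSSCG00000024520, a gene with no symbol on the plus strand that reaches from 93098776 to 93261882. Since those sources do not say whether reads were counted by strand, reads of this stretch cannot be assigned to a strand. The neighbour was at 205, 67.5, 164, 150 and 98.9 CPM in SEFA-6179 replicates 1 to 5 and at 135 to 275 CPM in MCT, with a log2 fold change of -0.67 ± 0.27 (SE) that did not pass (edgeR adjusted p = 0.375). Its mean level was thus lower in the group where CROT was higher. None of the other 4 members overlaps another gene of the table.

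**Figure D1:**
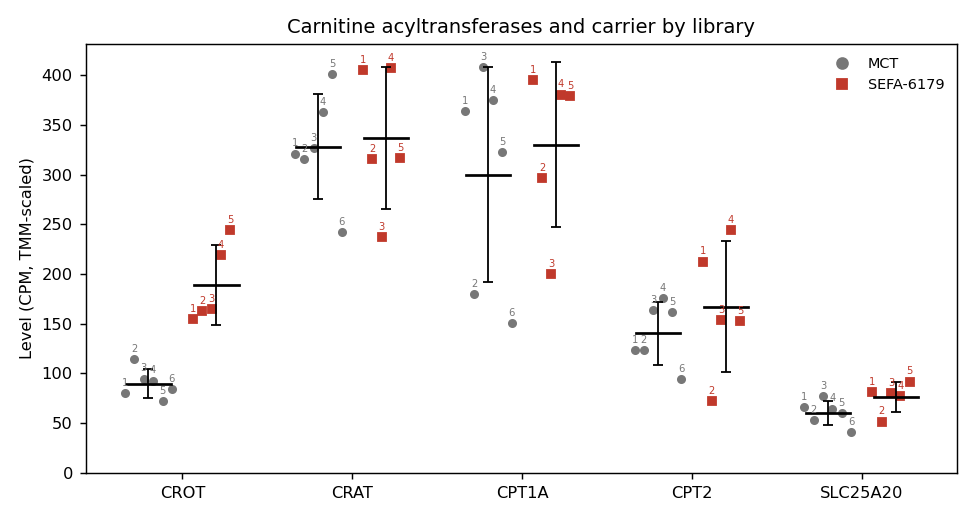
Level of each member in each library (CPM, linear axis from 0), with MCT as grey circles and SEFA-6179 as red squares numbered by replicate; black bars are the group mean and 1 SD. For CROT each SEFA-6179 point lies above each MCT point, while the groups overlap for CRAT, CPT1A, CPT2 and SLC25A20.

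CRAT, the short-chain enzyme of both organelles (chromosome 1, 269386650 to 269401331), differed between the groups by less than the spread among animals. It stood at 405, 315, 237, 407 and 317 CPM in SEFA-6179 replicates 1 to 5. In MCT it ran from 242 CPM in replicate 6 over a median of 324 CPM to 401 CPM in replicate 5. Each group had a low library, replicate 3 of SEFA-6179 and replicate 6 of MCT, and the ranges nearly coincided. The log2 fold change was 0.035 ± 0.18 (SE), with a 95% interval of -0.35 to 0.42 (edgeR adjusted p = 0.967). This interval does not hold a change of the size seen for CROT.

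CPT1A, the entry step of long-chain oxidation (chromosome 2, 4233099 to 4293984), varied widely among the MCT animals. With SEFA-6179 it was at 395, 297, 200, 380 and 379 CPM in replicates 1 to 5. In MCT it ran from 150 CPM in replicate 6 over a median of 343 CPM to 408 CPM in replicate 3, and replicate 2 was the other low library at 180 CPM. All SEFA-6179 values fell inside the MCT range. The coefficient of variation was 36.2% in MCT and 25.0% with SEFA-6179. Its log2 fold change was 0.14 with a 95% interval of -0.44 to 0.72 (edgeR adjusted p = 0.894), so a rise of up to 1.65-fold was not excluded by these libraries.

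SLC25A20, the carnitine-acylcarnitine carrier of the inner membrane (chromosome 13, 31523821 to 31553286), had the highest fold among the 4 that did not pass. It was at 81.1, 51.6, 80.4, 77.6 and 91.8 CPM in SEFA-6179 replicates 1 to 5. In MCT it ran from 40.9 CPM in replicate 6 over a median of 62.5 CPM to 77.2 CPM in replicate 3. With SEFA-6179, 4 of 5 libraries exceeded the highest MCT library, and replicate 2 lay below the MCT median. The log2 fold change was 0.34 ± 0.18 (SE), with a 95% interval of -0.038 to 0.72 (edgeR adjusted p = 0.512, unadjusted p = 0.0744).

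CPT2, the matrix transferase (chromosome 6, 159036821 to 159061327), was the most variable member with SEFA-6179, with a coefficient of variation of 39.5% against 22.4% in MCT. It was at 212, 71.9, 154, 244 and 153 CPM in SEFA-6179 replicates 1 to 5. In MCT it ran from 94.2 CPM in replicate 6 over a median of 143 CPM to 176 CPM in replicate 4. The SEFA-6179 values therefore reached both above and below the MCT range, with replicates 1 and 4 high and replicate 2 low. The log2 fold change was 0.25 ± 0.26 (SE), with a 95% interval of -0.31 to 0.81 (edgeR adjusted p = 0.784).

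**Figure D2:**
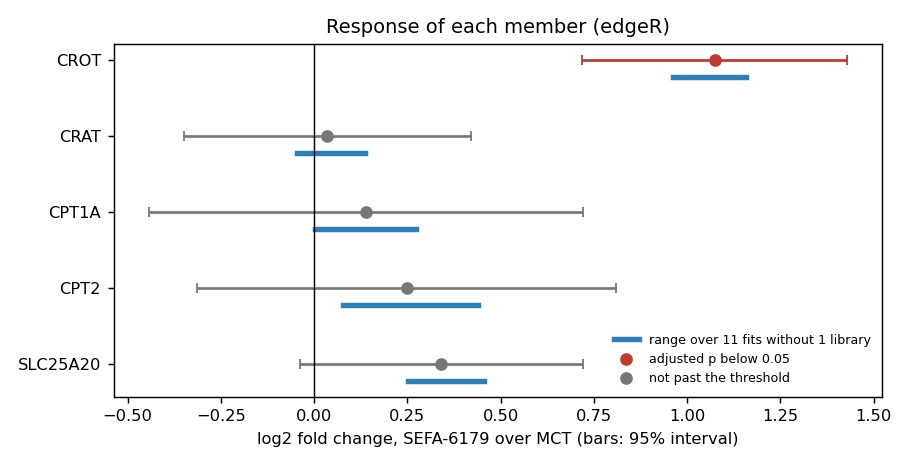
Log2 fold change of SEFA-6179 over MCT for each member from edgeR, with its 95% interval; the blue line under each point spans the 11 fits that left out 1 library. CROT lies at 1.07 with an interval from 0.72 to 1.43, and the intervals of the other 4 include 0.

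Whether CROT responded more than the other members was tested directly, on the log2 ratio of their CPM within each library, which does not depend on how libraries are scaled. All 10 pairs of the 5 members were tested with a two-sided exact permutation test over the 462 assignments of libraries to groups, and adjusted over the 10 pairs. The ratio of CROT to CRAT was -0.83 ± 0.40 (SD, n = 5) on the log2 scale with SEFA-6179 and -1.87 ± 0.37 (SD, n = 6) with MCT. This is a difference of 1.04, or 2.06-fold (exact permutation p = 0.00216, the smallest this test can give, adjusted p = 0.0216). For this ratio 5 of 5 SEFA-6179 libraries exceeded the highest MCT library. In these libraries CROT thus stood higher relative to CRAT, its short-chain relative, with SEFA-6179. That CROT passed was known before the members were chosen, and the ratios use the same libraries. These p-values and their adjustment over the 10 pairs do not allow for that choice.

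Against the 3 proteins of the mitochondrial long-chain shuttle the difference did not pass after adjustment. The ratio of CROT to CPT2 was 0.90 higher on the log2 scale with SEFA-6179 (exact permutation p = 0.0216, adjusted p = 0.0722), with 3 of 5 libraries above all MCT libraries. That of CROT to SLC25A20 was 0.72 higher (exact permutation p = 0.0216, adjusted p = 0.0722), also with 3 of 5. That of CROT to CPT1A was 0.87 higher (exact permutation p = 0.0411, adjusted p = 0.103), with 2 of 5. In MCT replicates 2 and 6, where CPT1A was low, this last ratio reached the range of the SEFA-6179 libraries. Among the 6 pairs without CROT the differences ran from -0.32 to 0.025, with adjusted exact permutation p from 0.333 to 0.929.

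Without MCT replicate 5 the CROT to CRAT difference was 0.92 (exact permutation, adjusted p = 0.0794), and without SEFA-6179 replicate 5 it was 0.93 (adjusted p = 0.0952). With any MCT library left out, 5 against 5, the smallest adjusted p that 1 pair alone can reach is 0.0794.

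**Figure D3:**
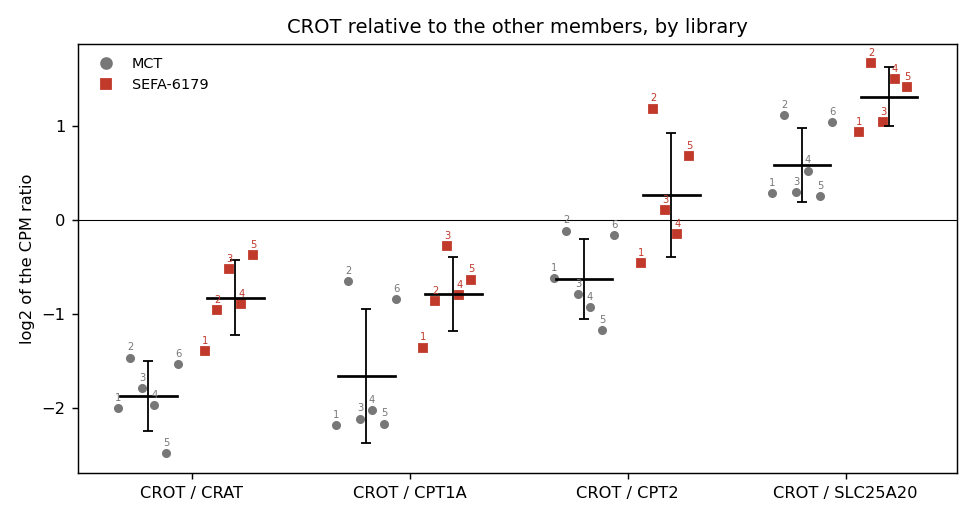
Log2 ratio of the CROT level to that of each other member in each library (CPM, not corrected for gene length, so positions between columns are not comparable), with group mean and 1 SD as black bars. SEFA-6179 is separate from MCT for CROT over CRAT, and overlaps with MCT replicates 2 and 6 in the other 3 columns.

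Per gene length the order of the levels was CRAT, CPT1A, CPT2, SLC25A20 and CROT, by mean deposited FPKM over the 11 libraries. Their means were 57.2 ± 10.3, 52.5 ± 15.8, 50.8 ± 16.4, 37.8 ± 8.61 and 20.2 ± 8.76 FPKM (SD, n = 11). CRAT exceeded CPT1A in 7 of 11 libraries and CPT1A exceeded CPT2 in 6 of 11, so these neighbours did not differ beyond their spread (exact sign-flip permutation, adjusted p = 0.202 and 0.772 over the 4 neighbouring pairs). CPT2 lay above SLC25A20 in 9 of 11 libraries, 6 of 6 MCT but 3 of 5 SEFA-6179 (exact permutation over both groups, adjusted p = 0.0156). The neighbouring pairs were set by ranking these same means. SLC25A20 lay above CROT in 11 of 11 (exact permutation, adjusted p = 0.00391). CROT was the lowest of the 5 per length in each library except SEFA-6179 replicate 2, where it was at 24.3 FPKM and CPT2 at 23.8 FPKM.

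CROT was at 28.3 ± 5.99 FPKM (SD, n = 5) with SEFA-6179 and 13.5 ± 2.14 FPKM (SD, n = 6) with MCT. Its share of the summed FPKM of the 5 members was 12.0% ± 2.29 with SEFA-6179 and 7.02% ± 2.13 with MCT. CRAT held 24.3% ± 3.68 against 28.5% ± 3.21, and CPT1A 23.0% ± 3.84 against 24.3% ± 5.13. These FPKM values rest on the deposited gene lengths, which range from 1771 bases for SLC25A20 to 6591 for CROT.

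**Figure D4:**
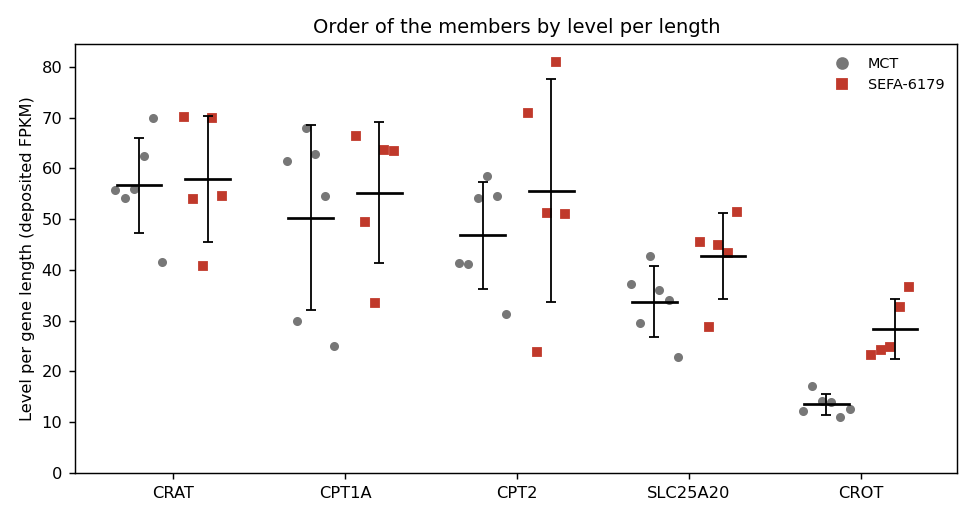
Level per gene length of each member (deposited FPKM, linear axis from 0) in MCT (grey circles) and SEFA-6179 (red squares), ordered by the mean over the 11 libraries, with group mean and 1 SD. CRAT, CPT1A and CPT2 overlap throughout, and CROT has the lowest mean in both groups.

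How the members varied together between animals of a group was also described. After each group mean was subtracted, the 6 pairs among CRAT, CPT1A, CPT2 and SLC25A20 had Pearson r of 0.35 to 0.75 over the 11 libraries, and the 4 pairs with CROT had r of 0.0038 to 0.24. Without the 2 libraries farthest from the median of a pair's first gene, these ranges were 0.16 to 0.73 and 0.12 to 0.37. By rho, CROT with SLC25A20 (0.32) lay above CRAT with SLC25A20 (0.21). Whether the pairs with CROT differ from the others was not tested. No pair passed after adjustment over the 10 pairs. The highest rho was that of CRAT and CPT2, at 0.78 (exact permutation p = 0.0134, adjusted p = 0.0995), with r = 0.59. CRAT and CPT1A had r = 0.75 (exact permutation p = 0.00654, adjusted p = 0.0654) and rho = 0.60 (exact permutation p = 0.0502, adjusted p = 0.125). Without SEFA-6179 replicate 3 and MCT replicate 6, the libraries farthest from the median, that r was 0.33, so the relation rested on them. CPT1A and SLC25A20 had r = 0.67 (exact permutation p = 0.0296, adjusted p = 0.0986) and rho = 0.77 (exact permutation p = 0.0199, adjusted p = 0.0995), and r = 0.69 without the same libraries. CPT2 and SLC25A20 had r = 0.75 (exact permutation p = 0.0187, adjusted p = 0.0936) and rho = 0.44 (exact permutation p = 0.186, adjusted p = 0.371), and r = 0.68 without SEFA-6179 replicates 2 and 4. MCT replicate 6, the library with the fewest counts, was the lowest MCT library for all 4 of these genes, while its CROT level of 84.1 CPM lay inside the MCT range.

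Among 9943 other genes with a symbol and a mean count of at least 50, the 3 most like each member over the 11 libraries were taken by Pearson r on log2 CPM. Being the highest of many, they carry no p. CROT was most like FMO4, a flavin monooxygenase (r = 0.92, rho = 0.85), HPRT1, of purine salvage (r = 0.92, rho = 0.87), and NRBF2, a subunit of an autophagy lipid kinase complex (r = 0.90, rho = 0.89). With group means removed these r fell to 0.39, 0.49 and 0.52, so much of the likeness was the difference between the groups. FMO4 and HPRT1 were themselves higher in SEFA-6179 (edgeR adjusted p = 0.0273 for both, called in 6 and 8 of the 11 fits without 1 library), and NRBF2 did not pass (edgeR adjusted p = 0.172).

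For the other members the likeness was as strong inside the groups. CPT1A was most like HADHA, the alpha subunit of the mitochondrial trifunctional protein that oxidises long-chain acyl-CoA (r = 0.94, rho = 0.77, within groups r = 0.94), then TECTA and SEC23A, a coat protein of transport vesicles (r = 0.91 and 0.89). Without the libraries farthest from the median of CPT1A, the r with HADHA was 0.82. CPT2 was most like EFR3A, ARCN1, a subunit of the COPI coat, and ACADSB, a mitochondrial dehydrogenase of short branched acyl-CoA (r = 0.90, 0.89 and 0.89). CRAT was most like genes that include UVRAG and FAM114A2 (r = 0.87 and 0.86). SLC25A20 was most like SLC30A5, a zinc transporter, SEC22B, a vesicle fusion protein, and ZNF41 (r = 0.91, 0.90 and 0.89). None of these genes passed the threshold between the groups.

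The steps around the carnitine enzymes are given next, by lists chosen by function. Over all 13671 genes tested the median log2 fold change was -0.0015, 49.8% lay above 0, and 10.8% (1471 genes) had an unadjusted p below 0.05 by edgeR. For the 5 members the median was 0.25, and all 5 lay above 0.

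The remaining genes of the carnitine system did not pass. Of 8 further transferases and carriers 7 were in the table and 4 were tested, with a median log2 fold change of 0.042. CPT1B, the muscle form of CPT1, was at 7.66 ± 0.624 FPKM with SEFA-6179 and 7.06 ± 1.57 FPKM with MCT, far below CPT1A at 55.2 ± 13.9 and 50.3 ± 18.2 FPKM. Its log2 fold change was 0.12 ± 0.16 (SE, edgeR adjusted p = 0.829). SLC25A29, a mitochondrial carrier of basic amino acids, had one of 0.37 ± 0.34 (edgeR adjusted p = 0.746). Of carnitine synthesis, TMLHE, the first enzyme, was at 49.1 ± 7.57 against 39.1 ± 8.71 CPM (edgeR adjusted p = 0.504). BBOX1, the last enzyme, was at 46.3 ± 17.1 against 51.9 ± 22.1 CPM (edgeR adjusted p = 0.898).

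Genes that set malonyl-CoA, the inhibitor of CPT1, likewise had 0 of 9 tested members past the threshold and 0 at an unadjusted p below 0.05 by edgeR, with a median log2 fold change of 0.13. ACACB, the remaining gene of the 10 listed, was not in the table, so this list is incomplete. ACACA differed by 0.22 ± 0.28 (SE) on the log2 scale and MLYCD by -0.19 ± 0.25 (edgeR adjusted p = 0.822 and 0.842). STK11, a kinase upstream of AMPK, differed by -0.19 ± 0.13 (SE) on the log2 scale and PRKAB1, an AMPK subunit, by 0.22 ± 0.16 (edgeR adjusted p = 0.638 and 0.660). Upstream of the transferases, 0 of 12 tested acyl-CoA synthetases passed by edgeR (4 at an unadjusted p below 0.05), and 11 of 12 lay above 0, with a median of 0.31. The 1 below 0, ACSL4, had the largest difference of the list and was among those 4. It differed by -1.44 ± 0.46 (SE) on the log2 scale (edgeR unadjusted p = 0.00844, adjusted p = 0.268). ACSM4, of the medium-chain synthetase family, averaged 1075 ± 259 CPM in SEFA-6179 livers against 630 ± 58.2 CPM in MCT livers (edgeR adjusted p = 0.131, and 0.00414 by DESeq2). Without SEFA-6179 replicate 3 it passed by edgeR (adjusted p = 0.0242). ACSS3, a mitochondrial short-chain synthetase, was at 251 ± 19.1 against 174 ± 36.0 CPM, with groups that did not overlap (edgeR adjusted p = 0.227). Of 6 tested thioesterases, which release free fatty acid from acyl-CoA, none passed, with 1 at an unadjusted p below 0.05 and a median of 0.16. ACOT13 differed by 0.55 ± 0.17 (SE) on the log2 scale and ACOT9 by -0.62 ± 0.33 (edgeR adjusted p = 0.237 and 0.526).

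Downstream, 2 of 15 tested mitochondrial beta-oxidation enzymes rose, where 0.219% of all genes tested passed, and 13 did not pass. Of the 15, 7 had an unadjusted p below 0.05 by edgeR and 12 lay above 0, with a median log2 fold change of 0.27. The thiolase ACAA2 was 3.18-fold higher in mean CPM (edgeR adjusted p = 0.0319) and the dehydrogenase ACADL 1.79-fold higher (edgeR adjusted p = 0.0398). ACAA2 passed in 4 of the 11 fits without 1 library and ACADL in 2 of 11. Both calls held when SEFA-6179 replicate 3 was left out and when MCT replicate 6 was, and that of ACAA2 also on leaving out replicate 4 of SEFA-6179 or replicate 5 of MCT. The highest adjusted p was 0.106 for ACAA2, without SEFA-6179 replicate 5, and 0.124 for ACADL, without MCT replicate 1. In the peroxisome, where CROT acts, 0 of 16 tested oxidation enzymes passed by edgeR, 3 had an unadjusted p below 0.05, and 13 lay above 0, with a median of 0.25. HACL1, a lyase of alpha-oxidation, was nearest, at 107 ± 22.7 against 62.3 ± 11.6 CPM (edgeR adjusted p = 0.0905, 0.00605 by DESeq2 and 0.0428 by limma). It passed by edgeR without SEFA-6179 replicate 3 (adjusted p = 0.0326) or without MCT replicate 6 (adjusted p = 0.0482). PHYH, the hydroxylase of the same route, was at 1020 ± 521 against 526 ± 162 CPM (edgeR adjusted p = 0.291). Of 13 tested genes of peroxisome assembly none passed by edgeR (3 at an unadjusted p below 0.05), with a median of 0.027. PEX7, an import receptor, differed by 0.43 ± 0.18 (SE) on the log2 scale (edgeR adjusted p = 0.408).

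Of 21 tested carriers of the SLC25 family other than those named above, 0 passed by edgeR, 5 had an unadjusted p below 0.05, and the median was 0.15, against 0.34 for SLC25A20. SLC25A47, a liver carrier, was at 776 ± 292 against 413 ± 162 CPM, and SLC25A25, an ATP-magnesium and phosphate carrier, at 184 ± 48.7 against 102 ± 42.8 CPM (edgeR adjusted p = 0.274 and 0.253). Among 11 tested lipid-sensing receptors and coactivators, none passed by edgeR (1 at an unadjusted p below 0.05), 10 lay above 0, and the median was 0.28. The log2 fold change of PPARD was 0.64 ± 0.22 (SE), and that of RXRA, the partner of such receptors, was 0.34 ± 0.16 (edgeR adjusted p = 0.286 and 0.477).

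**Figure D5:**
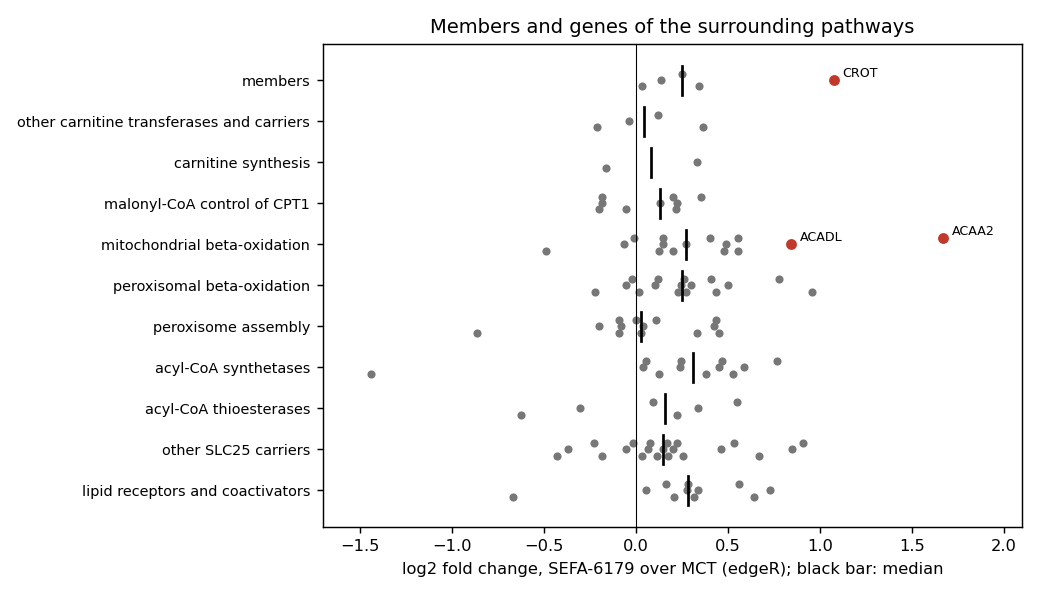
Log2 fold change of SEFA-6179 over MCT from edgeR for each tested member and each tested gene of the surrounding pathways, with the median of each row as a black bar; red points passed an adjusted p of 0.05. CROT, ACAA2 and ACADL are the 3 genes shown that passed.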

How the data were processed

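Per the file headers, the authors deposited for each liver library a raw read count, an FPKM value and a normalized signal per gene. The deposited signal is the count divided by a library size factor, and was not used. Their deposited comparison holds per gene a log2 fold change and a p-value, raw and adjusted. Tools named in the submitters' processing notes are DESeq2 1.20.0, featureCounts 1.5.0-p3, HISAT2 2.0.5 and StringTie 1.3.3b. Genome build and strand setting: not given in the sources used here.

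From the counts, the groups were compared by edgeR 4.0.16 under R 4.3.3 (filterByExpr with a minimum count of 10, TMM, robust quasi-likelihood test, two-sided) over 11 libraries and 13671 genes, at an adjusted p of 0.05, and checked on simulated counts. Log2 CPM used a prior count of 2. Standard errors and intervals were derived from the F statistic. Alternatives were DESeq2 size factors, other low-count filters, no robust estimation, gene length offsets, the EIF1AY covariate, a replicate block, libraries left out, DESeq2 1.42.0 and limma 3.58.1. Permutation tests used Python 3.11.15. No libraries agreed within sampling noise. If libraries do not stand for separate animals, p-values measure only the spread between samples. The members, lists and alternatives were chosen with earlier results of these data known. Named genes were the members, overlapping genes, list genes past the threshold, the 2 list genes with the smallest p, and the 3 genes most like each member. Not every gene this rule picks is reported here, and ACSL4, ACACA and MLYCD are given outside it.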

Additional observations from a re-analysis of the deposited data

Results flagged for a closer look

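For the named genes, 82 sets of CPM values (1 gene in 1 group) were searched for a lone extreme value, and 2 had one, where chance gives about 5%. Both concern MCT replicate 5: ACOT9 was at 15.7 CPM there and FAM114A2, which is among the genes most like CRAT, at 61.2 CPM, in each case above the other MCT libraries. None of the sets of the 5 carnitine genes had one.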

How the results depend on the processing

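The log2 fold change of CROT kept its sign in all 21 alternatives and passed in 15. It was 1.06 with the EIF1AY covariate, 1.05 with a replicate block and 0.97 without MCT replicate 5 and SEFA-6179 replicate 4 together (adjusted p = 0.0515, 0.134 and 0.0623), which left 0 members past the threshold each time. Over the fits without 1 library it was 0.96 to 1.16, with 0 to 1 members past the threshold. The calls over all genes were 6 with the covariate, 8 with the block, 1 without the 2 libraries, 255 by DESeq2, 60 by limma and 0 to 53 without 1 library, against 30. No sign was seen that replicate numbers pair the animals. Same-numbered libraries had deviations correlated at -0.15 to 0.20, and 1 of 5 SEFA-6179 libraries correlated best with its own number. So few correlations cannot exclude a pairing, and the labels name no litter. The block fit left out MCT replicate 6, since SEFA-6179 has no replicate 6. This fit turned CRAT to -0.060, UVRAG to -0.026, FAM114A2 to -0.023 and ARCN1 to -0.047. Leaving out MCT replicate 6 alone, without a block, turned them to -0.039, -0.019, -0.033 and -0.035. Leaving out the 2 libraries turned BBOX1 to 0.0024. Without 1 library the log2 fold change of CRAT was -0.047 to 0.14, UVRAG -0.056 to 0.091, FAM114A2 -0.033 to 0.27, ARCN1 -0.035 to 0.11 and BBOX1 -0.33 to 0.057. The difference in the log2 ratio of CROT to CRAT was 0.93 (adjusted exact permutation p = 0.0794) without the 2 libraries, and 0.92 to 1.18 without 1. Without the 2 libraries, that adjusted p is the smallest that 1 pair alone can reach, so it could not pass alone. Likewise, the log2 ratio of CROT to CPT2 differed by 0.67 to 1.08, that of CPT1A to CPT2 by -0.22 to 0.19 and that of CPT1A to SLC25A20 by -0.26 to 0.045. Apart from CROT and its ratio to CRAT, none of these genes or ratios had passed with all libraries. The causes were not tested.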
